A study of Mus musculus with 6 samples.

Results

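Ionotropic glutamate receptor genes of mouse islets were followed in a single comparison, bKO against WT islets. The set was 9 named genes, Grin1, Grin2a, Grin2c, Grin2d, Grin3a, Grina, Gria2, Grik2 and Grik5, each matched by its symbol to a row of the deposited table. Of these, 8 had a row among the 16547 genes of the table, and Grin2a was not analysed here. The set was chosen by the measured difference of Grin1 between the genotypes in an earlier analysis of these same libraries, so the differences given below for the set describe it and support nothing further. Each group had 3 RNA libraries of pancreatic islets, handpicked after collagenase digestion, from mice of strain C57BL/6 at an age of 11 to 12 weeks. The bKO group (genotype BetaKcnj11 -/-) lacks Kcnj11 in beta cells, and the WT group (Kcnj11 fl/fl) carries the floxed gene, so both groups share the C57BL/6 background and 2 days of islet culture in RPMI medium. Kcnj11 makes the pore-forming subunit of KATP channels, whose closure links glucose metabolism to the beta cell's membrane potential. The labels name neither the driver of the recombinase nor the number of animals behind a library, so p-values measure the spread between these libraries, which may be technical.

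Ionotropic glutamate receptors are ion channels that open when glutamate binds, and each is built of several subunits. NMDA receptors need the GluN1 subunit, made by Grin1, which binds the co-agonist glycine or D-serine, joined with GluN2 subunits (Grin2a to Grin2d), which bind glutamate, or with GluN3 subunits (Grin3a, Grin3b). AMPA receptors are built from Gria subunits and kainate receptors from Grik subunits. NMDA receptors pass calcium when the membrane is depolarized, and their block has been described to raise glucose-stimulated insulin secretion from mouse and human islets. Grina carries a name from the same nomenclature but belongs to the TMBIM family of membrane proteins (Tmbim3), not to the channel subunits.

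The start of Grin1 is shown beside those of Grin2c, its most abundant NMDA partner here, and Grik5, the most abundant channel subunit of the set, since these are the genes whose levels the results compare. Each window runs from 250 bases before to 50 bases after the start, 5′ to 3′ on the gene's strand, from RefSeq on GRCm38.p6. That build is not the mm9 of the submitters' processing notes and serves only to show the sequence. Capitals mark GC boxes (GGGCGG, or CCGCCC on the other strand), a motif bound by Sp-family factors, and E boxes (CACGTG), a motif bound by basic helix-loop-helix factors.
Grin1, chr2:25319138-25319437, minus strand: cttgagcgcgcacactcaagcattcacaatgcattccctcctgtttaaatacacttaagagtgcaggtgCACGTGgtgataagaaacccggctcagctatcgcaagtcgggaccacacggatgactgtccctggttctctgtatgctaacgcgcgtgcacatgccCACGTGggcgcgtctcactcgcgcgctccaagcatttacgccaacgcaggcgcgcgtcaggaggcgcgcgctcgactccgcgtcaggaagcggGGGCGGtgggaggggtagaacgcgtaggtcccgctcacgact
Grin2c, chr11:115267194-115267493, minus strand: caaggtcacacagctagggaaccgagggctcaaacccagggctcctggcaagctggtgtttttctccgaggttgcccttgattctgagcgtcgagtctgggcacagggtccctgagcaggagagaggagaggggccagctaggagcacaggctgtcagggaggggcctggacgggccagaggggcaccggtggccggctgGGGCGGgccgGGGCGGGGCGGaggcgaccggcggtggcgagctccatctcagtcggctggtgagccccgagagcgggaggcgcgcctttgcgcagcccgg
Grik5, chr7:25072320-25072619, minus strand: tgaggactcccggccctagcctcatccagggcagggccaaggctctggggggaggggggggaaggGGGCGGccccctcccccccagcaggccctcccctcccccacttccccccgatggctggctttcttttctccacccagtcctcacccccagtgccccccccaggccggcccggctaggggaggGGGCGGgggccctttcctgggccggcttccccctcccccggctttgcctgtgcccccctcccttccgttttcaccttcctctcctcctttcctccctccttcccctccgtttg
The Grin1 window held 2 E boxes and 1 GC box, the Grin2c window 3 GC boxes, neighbours of which share letters, and the Grik5 window 2 GC boxes. Among 32851 promoter windows of this length, 35.7% held a GC box and 7.15% an E box on either strand. The half-site of the cAMP response element (TGACG, or CGTCA on the other strand) occurred 2 times in the Grin1 window, in neither of the other 2 printed windows, and in 20.8% of all windows. RefSeq windows matched 6 of the 9 genes, and those of Gria2, Grin2d and Grik2 held no GC box and no E box. The Grik2 window held 1 half-site of the cAMP response element, and those of Gria2 and Grin2d held 0. CpG dinucleotides numbered 33 in the Grin1 window, 22 in that of Grin2c and 10 in that of Grik5, against a median of 7 over all windows. A match of letters describes the sequence and does not show binding.

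The values were FPKM, which scale fragment counts by transcript length and by sequencing depth, so levels can be compared between genes of different length. Steps between the FPKM values of low genes put the depth at about 26600000 to 42100000 fragments in bKO libraries and 23100000 to 27700000 in WT libraries. Kcnj11 averaged 4.09 ± 1.06 FPKM in bKO islets and 23.3 ± 3.07 FPKM in WT islets (SD, n = 3 each), in the direction of the labels. The islet hormone genes Ins2, Gcg and Sst averaged 189918, 10184 and 4162 FPKM in bKO islets, against 233406, 11381 and 4969 FPKM in WT islets. Replicates 1 and 3 of bKO were the most alike of all libraries, at a root mean square difference of 0.11 on the log2 scale against 0.19 to 0.39 for the other 14 pairs, and the labels do not say whether they are separate animals. Acinar cell markers, in turn, summed to 1323 FPKM in WT replicate 1 and to 11610 to 26298 FPKM in the other 5 libraries.

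Grin1 was lower in every bKO library than in every WT library. It was measured at 3.12, 3.66 and 2.84 FPKM in bKO replicates 1, 2 and 3, against 7.59, 8.17 and 8.58 FPKM in WT replicates 1, 2 and 3. The groups did not overlap, and a factor of 2.07 lay between the nearest bKO and WT libraries. The means were 3.21 ± 0.42 FPKM in bKO and 8.11 ± 0.50 FPKM in WT islets (SD, n = 3 each), so that bKO islets held 39.6% of the WT level. Over the 9 pairs of a bKO with a WT library, the ratio of bKO to WT ran between 0.33 and 0.48. Within a group the 3 libraries spread over less than 1 FPKM, so the distance between the groups was several times the spread inside them. These levels stood on an estimated 364, 564 and 281 fragments in bKO replicates 1, 2 and 3 and 660, 840 and 805 in WT replicates 1, 2 and 3. The antisense gene Grin1os, which overlaps Grin1, was at 0.0276 to 0.0600 FPKM in bKO and 0.0272 to 0.0796 FPKM in WT libraries. Whether the counting used strand is not stated in the labels, so reads of the pair could have been mixed, although the antisense level was small beside that of Grin1.

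**Figure D1:**
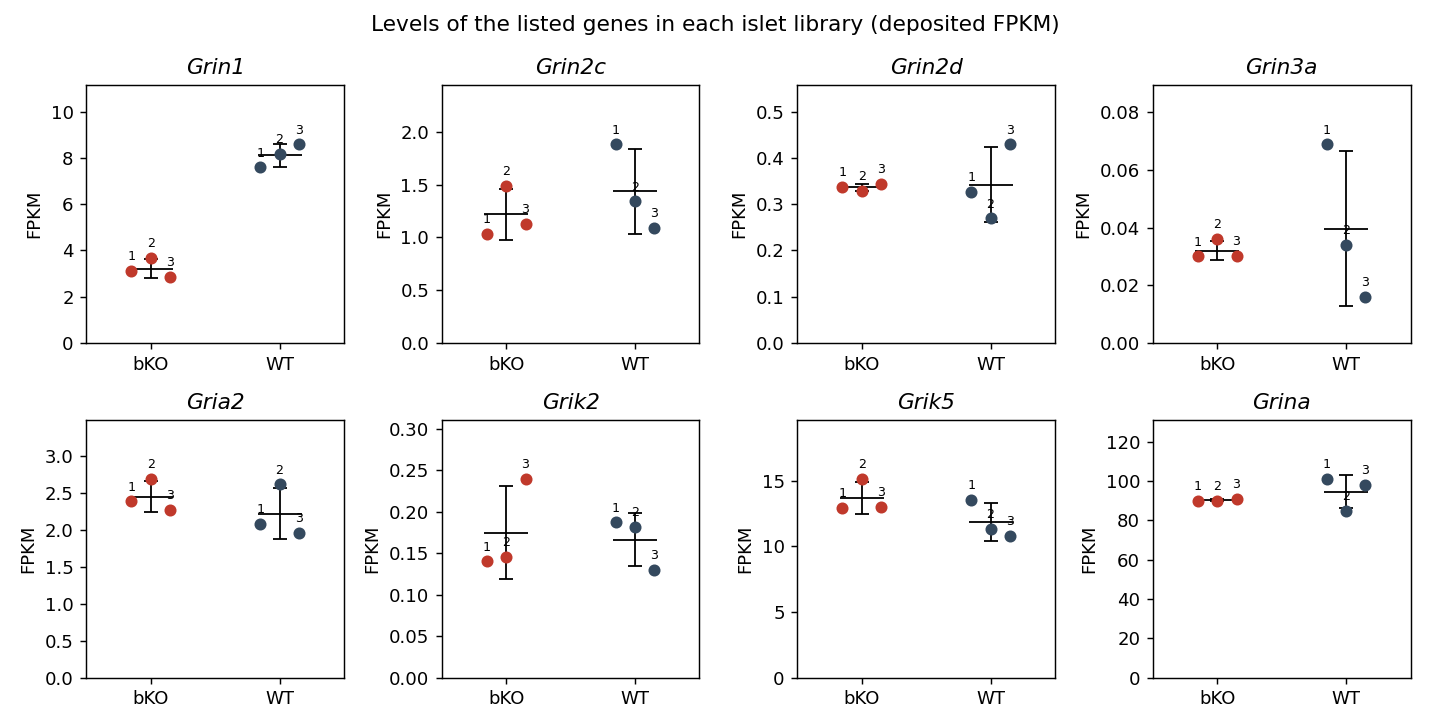
Deposited FPKM of the 8 measured genes, 1 point per library with its replicate number, bKO left of WT. Horizontal bars are means and vertical bars SD over 3 libraries, and each panel starts at 0. Only in the Grin1 panel do the groups separate, with 2.84 to 3.66 FPKM in bKO and 7.59 to 8.58 FPKM in WT libraries.

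On log2(FPKM + 1) after quantile normalization, the scale on which 15962 genes above 0 in all libraries were fitted with limma, the Grin1 difference of bKO minus WT was -1.21 (SE 0.10, 95% interval -1.45 to -0.96). Its Benjamini-Hochberg adjusted p was 0.0306, given as the value for which the gene was chosen. Grin1 ranked 6th by p and 9th by most negative log2 difference among all tested genes, and 4th by size among the genes called lower. Of the 8 measured genes of the set, 1 was called lower and 0 higher, beside 0.132% of all tested genes called lower and 0.0626% called higher. The same 1 gene was lower and 0 were higher at an unadjusted limma p under 0.05, beside 9.17% of all tested genes lower and 5.05% higher, and nothing is read from that count because the contrast chose the set. The call was lost without bKO replicate 1 (limma adjusted p = 0.242), bKO replicate 3 (0.175), WT replicate 2 (0.115) or WT replicate 3 (0.096), and when the mean of bKO replicates 1 and 3 stood as 1 sample (0.226). The difference itself lay between -1.30 and -1.14 over the 6 fits that each left out 1 library, and was -1.17 with the pair averaged.

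Grin2c and Grin2d, the glutamate-binding partners of GluN1 measured here, overlapped between the genotypes. Grin2c was at 1.03, 1.49 and 1.13 FPKM in bKO replicates 1, 2 and 3, against 1.88, 1.34 and 1.09 FPKM in WT replicates 1, 2 and 3. Its highest value was WT replicate 1 and its lowest bKO replicate 1, with the other libraries mixed between them. The log2 difference was -0.21 (95% interval -0.53 to 0.11, limma adjusted p = 0.517), and -0.10 without WT replicate 1. Grin2d was at 0.338, 0.329 and 0.344 FPKM in bKO replicates 1, 2 and 3, against 0.327, 0.269 and 0.429 FPKM in WT replicates 1, 2 and 3. The bKO libraries all lay inside the WT range, and the log2 difference was -0.05 (95% interval -0.19 to 0.10).

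Grin3a, which makes a GluN3 subunit that binds glycine and lowers calcium passage in neurons, was close to the limit of measurement. It was at 0.0300, 0.0360 and 0.0301 FPKM in bKO replicates 1, 2 and 3, against 0.0688, 0.0339 and 0.0160 FPKM in WT replicates 1, 2 and 3. WT libraries held both the highest and the lowest value. These values stood on an estimated 6 to 11 fragments in bKO and 3 to 12 fragments in WT libraries, so a difference of moderate size was not detectable at this depth. Its log2 difference of -0.01 is also pressed towards 0 by the added 1.

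Grin1 made up the larger part of the NMDA receptor transcripts in both groups, and a smaller part in bKO islets. The summed FPKM of Grin1, Grin2c, Grin2d, Grin3a and Grin3b was 4.73, 5.76 and 4.54 in bKO replicates 1, 2 and 3, against 10.1, 10 and 10.3 in WT replicates 1, 2 and 3. Grin1 held 66.0%, 63.6% and 62.6% of that sum in bKO replicates 1, 2 and 3, against 74.8%, 81.4% and 83.5% in WT replicates 1, 2 and 3. The ratio of Grin1 to Grin2c plus Grin2d was 2.28, 2.01 and 1.94 in the bKO libraries, against 3.44, 5.09 and 5.63 in the WT libraries, in the same order of replicates. All 3 measures were lower in every bKO library, and each of them contains Grin1. Grin2a and Grin2b are not part of these sums.

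**Figure D2:**
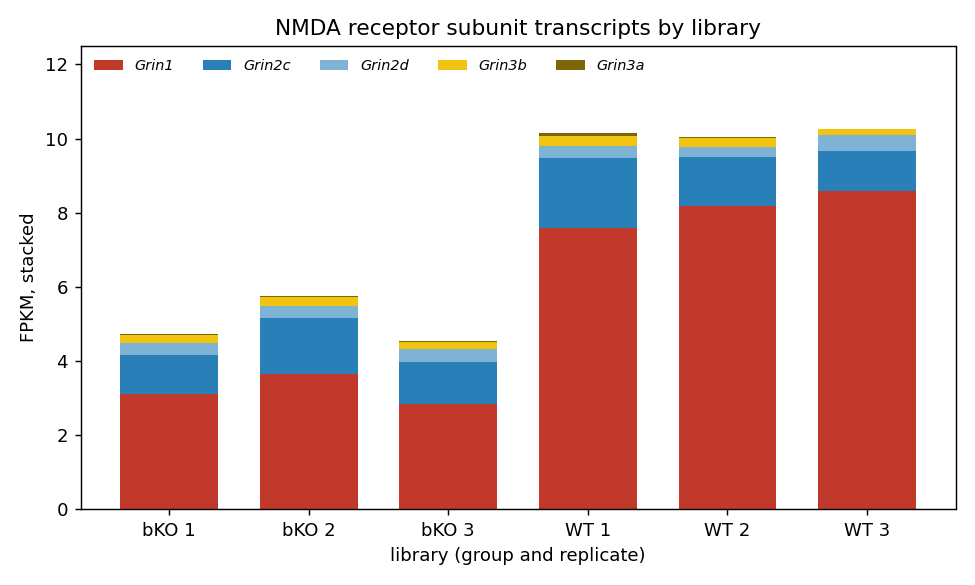
FPKM of the NMDA receptor subunit genes stacked for each library, bKO libraries left of WT libraries. The Grin1 segment sets the height, between 4.54 and 5.76 FPKM in bKO and between 10 and 10.3 FPKM in WT libraries, while the Grin2c and Grin2d segments overlap between the groups.

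The AMPA and kainate subunits did not separate the genotypes. Gria2, whose edited subunit makes AMPA receptors nearly impermeable to calcium, was at 2.38, 2.68 and 2.27 FPKM in bKO replicates 1, 2 and 3, against 2.08, 2.61 and 1.96 FPKM in WT replicates 1, 2 and 3. In both groups replicate 2 was the highest, and the ranges overlapped (log2 difference 0.01, 95% interval -0.26 to 0.27). Gria3, another AMPA subunit and not in the set, was the more abundant of the pair, at 5.66 ± 0.65 FPKM in bKO and 6.27 ± 0.63 FPKM in WT islets (SD, n = 3 each). Gria2 held 29.3% to 31.8% of the Gria2 and Gria3 sum in bKO libraries and 24.6% to 27.2% in WT libraries, ranges that did not meet, although neither gene alone separated the groups. That share was computed after the levels were seen.

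Grik5, a kainate subunit of high glutamate affinity that needs a partner such as GluK2 to form a channel, was the most abundant channel subunit of the family in both genotypes. It was at 12.9, 15.1 and 13.0 FPKM in bKO replicates 1, 2 and 3, against 13.5, 11.3 and 10.8 FPKM in WT replicates 1, 2 and 3. WT replicate 1 lay above bKO replicates 1 and 3, so the groups overlapped (log2 difference 0.11, 95% interval -0.14 to 0.36, limma adjusted p = 0.647). Grik2, which makes GluK2, was at 0.140, 0.145 and 0.239 FPKM in bKO replicates 1, 2 and 3, against 0.187, 0.182 and 0.130 FPKM in WT replicates 1, 2 and 3. The highest Grik2 value was bKO replicate 3 and the lowest WT replicate 3 (log2 difference -0.01, 95% interval -0.13 to 0.10, positive without quantile normalization). Grik5 was 54.2 to 104 times Grik2 in bKO libraries and 62.0 to 83.1 times in WT libraries, on an estimated 20 to 38 fragments of Grik2 per library.

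Grina, the TMBIM protein, was at 90.0, 90.1 and 91.1 FPKM in bKO replicates 1, 2 and 3, against 101, 84.9 and 98.2 FPKM in WT replicates 1, 2 and 3. The bKO values sat within the WT range (log2 difference -0.10, 95% interval -0.29 to 0.09, limma adjusted p = 0.593). Its level was the highest of the set by far. Other TMBIM genes were likewise abundant, with Tmbim6, an inhibitor of cell death in the endoplasmic reticulum, at 232 ± 5.74 FPKM in bKO and 221 ± 6.97 FPKM in WT islets (SD, n = 3 each). Of the 6 TMBIM genes tested with limma, 0 were called. At an unadjusted limma p under 0.05, 1 was lower and 0 higher, beside 9.17% and 5.05% of all tested genes. In FPKM, 1 gene was lower and 1 higher in every bKO library, beside 6.48% and 15.3% of all tested genes. Every bKO library was below every WT library in Tmbim4, at 97.2 ± 2.08 FPKM in bKO and 109 ± 6.00 FPKM in WT islets (limma adjusted p = 0.286). The gene higher in every bKO library was Faim2, at 0.540 ± 0.105 FPKM in bKO and 0.344 ± 0.0972 FPKM in WT islets (limma adjusted p = 0.47). Tmbim1 averaged 59.1 ± 6.92 FPKM in bKO and 47.3 ± 8.10 FPKM in WT islets, and its groups overlapped (limma adjusted p = 0.372).

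By mean FPKM the genes stood in the same order in both groups, Grina, Grik5, Grin1, Gria2, Grin2c, Grin2d, Grik2 and Grin3a from high to low. No neighbours in that order overlapped over the 3 libraries of a group. Grin1 lay just above Gria2 in bKO libraries, with a lowest Grin1 value of 2.84 FPKM and a highest Gria2 value of 2.68 FPKM, whereas in WT libraries the lowest Grin1 value was 7.59 FPKM and the highest Gria2 value 2.61 FPKM. Grin1 was 0.52 to 0.61 times Gria3 in bKO libraries and 1.17 to 1.43 times in WT libraries, so the order of these 2 genes was opposite in the 2 groups.

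**Figure D3:**
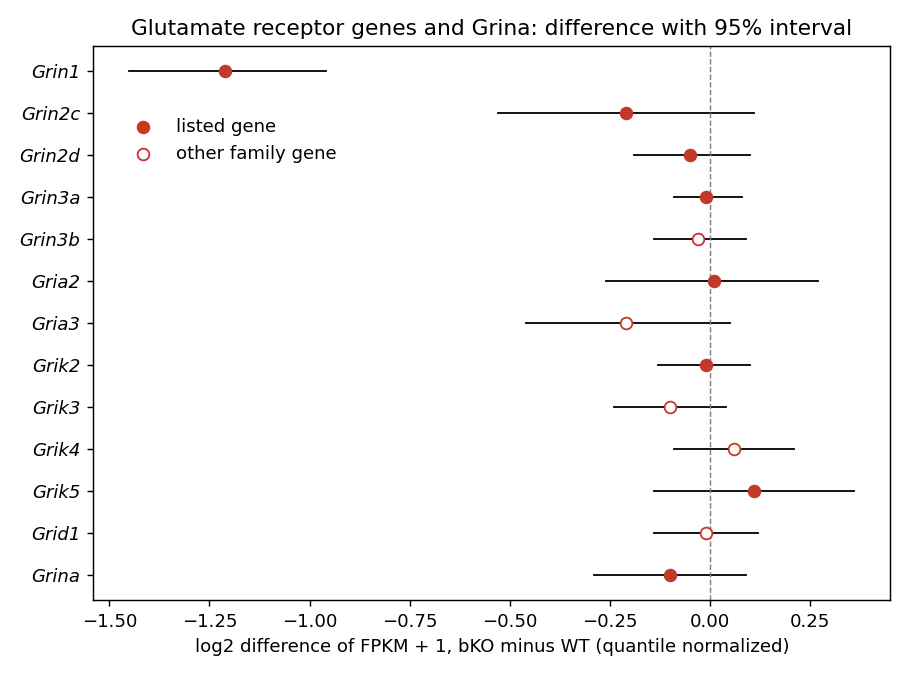
Log2 difference of FPKM + 1, bKO minus WT, for 12 ionotropic receptor genes and Grina, with 95% intervals from limma over 3 libraries a group. Filled points are genes of the set, open points other genes of the family. Only the Grin1 interval, -1.45 to -0.96, lies away from 0.

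Across the whole ionotropic family, 12 of 18 genes had a row, and Grin1 was the 1 gene called, lower, with 0 called higher. The other 11 had log2 differences between -0.21 and 0.11, a smallest limma adjusted p of 0.430, and 0 with groups that did not overlap. The median of the 12 was -0.02, beside -0.01 over all tested genes. For comparison, 6.48% of all tested genes had every bKO library below every WT library in deposited FPKM, and 15.3% had every bKO library above. Grin3b, Grik3, Grik4 and Grid1 were below 0.4 FPKM in every library.

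Proteins that traffic and anchor these receptors were tested as a list of 29 genes, of which limma called 0, with 4 lower and 1 higher at an unadjusted p under 0.05, beside 9.17% lower and 5.05% higher of all tested genes. Their median log2 difference was -0.01, with 5 genes lower and 4 higher in every bKO library, beside 6.48% lower and 15.3% higher of all tested genes. Grip1, a scaffold that binds AMPA receptors, was at 2.12, 2.49 and 1.98 FPKM in bKO replicates 1, 2 and 3, against 3.08, 3.32 and 2.89 FPKM in WT replicates 1, 2 and 3. The groups were apart, with a log2 difference of -0.45 (SE 0.09, limma adjusted p = 0.120). Dlgap1, a scaffold of the postsynaptic density in neurons, averaged 1.93 ± 0.38 FPKM in bKO and 2.26 ± 0.33 FPKM in WT islets, and Dlg2, which anchors NMDA receptors there, averaged 1.26 ± 0.08 FPKM in bKO and 1.49 ± 0.34 FPKM in WT islets (limma adjusted p = 0.401 and 0.421). Nsf, an ATPase of membrane fusion that also binds GluA2, was at 26.0 ± 1.74 FPKM in bKO and 27.5 ± 0.76 FPKM in WT islets (SD, n = 3 each, limma adjusted p = 0.377).

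Outside the rule for naming, and picked after their values were seen, 3 low genes had larger fold differences than Grip1, Dlgap1, Dlg2 and Nsf. They were not the only ones, as the scaffold gene Dlgap2 was at 33.4% of its WT mean, at 0.0124 FPKM in bKO and 0.0372 FPKM in WT islets. Cacng3, an AMPA receptor auxiliary subunit, was at 0.573, 0.693 and 0.760 FPKM in bKO replicates 1, 2 and 3, against 0.195, 0.255 and 0.246 FPKM in WT replicates 1, 2 and 3. The bKO mean was 2.91 times the WT mean, with a limma adjusted p of 0.0946. Grip2, the paralog of Grip1, was at 0.101 ± 0.016 FPKM in bKO and 0.315 ± 0.087 FPKM in WT islets (SD, n = 3 each, limma adjusted p = 0.0968). Actn2, an actinin that links NMDA receptors to actin in neurons and is abundant in muscle, was at 0.458 ± 0.116 FPKM in bKO and 0.115 ± 0.020 FPKM in WT islets (limma adjusted p = 0.113).

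The genes that make, move and consume glutamate and its co-agonists numbered 14, and limma called 0, with 2 higher and 1 lower at an unadjusted p under 0.05, beside 5.05% higher and 9.17% lower of all tested genes (median log2 difference 0.01). Gad1, which turns glutamate into GABA, was at 4.32, 5.81 and 4.30 FPKM in bKO replicates 1, 2 and 3, against 11.9, 9.66 and 8.02 FPKM in WT replicates 1, 2 and 3. Every bKO library was below every WT library, and the bKO mean was 48.7% of the WT mean (log2 difference -0.99, SE 0.16, limma adjusted p = 0.0968). Glud1, the mitochondrial glutamate dehydrogenase, was at 64.6, 68.4 and 65.9 FPKM in bKO replicates 1, 2 and 3, against 52.5, 57.9 and 62.4 FPKM in WT replicates 1, 2 and 3. The groups were apart by a narrow margin (log2 difference 0.17, SE 0.06, limma adjusted p = 0.253). Srr, the racemase that makes the co-agonist D-serine, was at 3.99 ± 0.26 FPKM in bKO and 4.15 ± 0.42 FPKM in WT islets, and Got1, a transaminase of glutamate, at 23.7 ± 2.01 in bKO and 24.8 ± 2.17 in WT islets (SD, n = 3 each, limma adjusted p = 0.510 and 0.590).

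Of 16 genes of signalling downstream of NMDA receptors, limma called 0 (3 higher and 0 lower by unadjusted p under 0.05, beside 5.05% and 9.17% of all tested genes), with a median log2 difference of 0.05, and 6 had every bKO library above every WT library, beside 15.3% of all tested genes. Fyn, a kinase that phosphorylates GluN2 subunits in neurons, was at 9.37, 8.70 and 9.40 FPKM in bKO replicates 1, 2 and 3, against 6.94, 6.58 and 6.72 FPKM in WT replicates 1, 2 and 3 (log2 difference 0.31, SE 0.06, limma adjusted p = 0.110). The groups were apart in Fyn, opposite in direction to Grin1, and the test missed the threshold. Rasgrf2, a calcium-responsive exchange factor for Ras, was at 12.3 ± 0.37 FPKM in bKO and 10.6 ± 1.1 FPKM in WT islets (limma adjusted p = 0.517).

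The RE1 silencing complex represses neuronal genes, Grin1 among its known targets, in many but not all cells that are not neurons. Which cells of these islet samples held its transcripts was not tested. Of 8 genes of that complex, limma called 0, and 0 had an unadjusted p under 0.05 (median log2 difference 0.05). Rest, the DNA-binding factor, was at 2.83, 2.03 and 3.02 FPKM in bKO replicates 1, 2 and 3, against 1.33, 1.76 and 2.27 FPKM in WT replicates 1, 2 and 3. WT replicate 3 lay above bKO replicate 2, so the groups overlapped (log2 difference 0.29, 95% interval -0.10 to 0.69, limma adjusted p = 0.472). Its corepressor Rcor1 averaged 12.8 ± 0.33 FPKM in bKO and 11.4 ± 0.69 FPKM in WT islets (SD, n = 3 each), with the groups apart and a limma adjusted p of 0.579. Rcor2 averaged 3.47 ± 0.36 FPKM in bKO and 3.62 ± 0.46 FPKM in WT islets, and Rcor3 8.69 ± 0.94 FPKM in bKO and 8.73 ± 0.76 FPKM in WT islets.

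**Figure D4:**
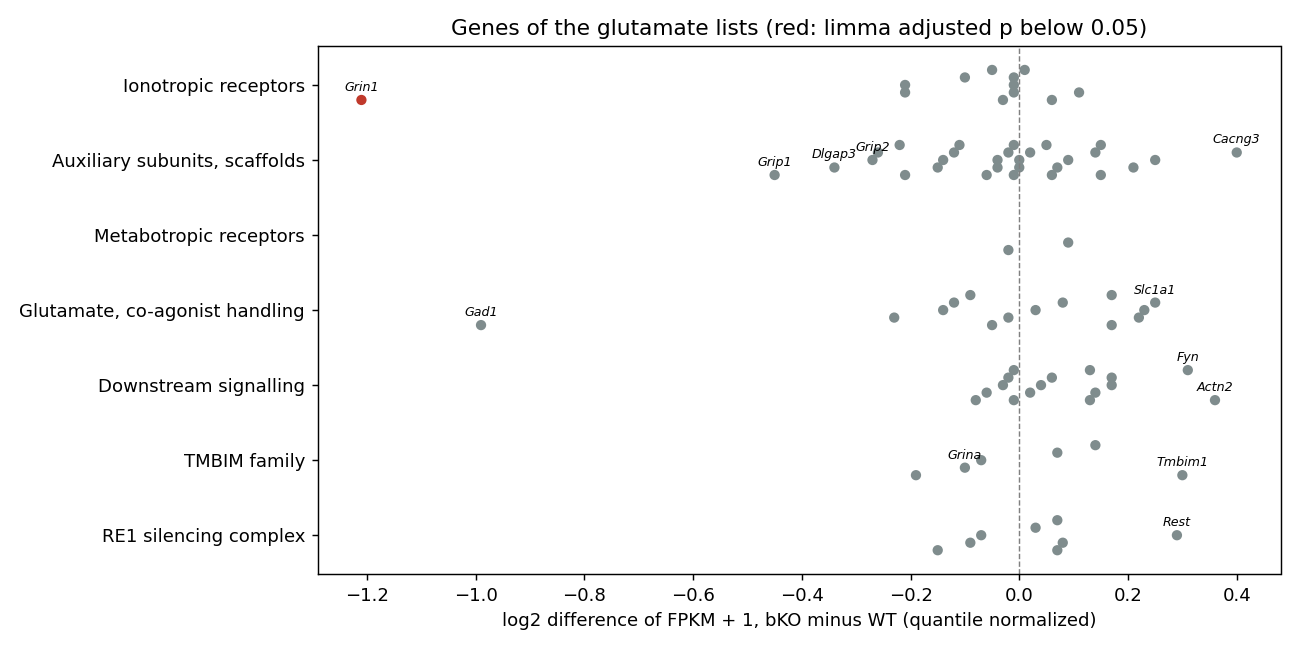
Log2 difference of FPKM + 1, bKO minus WT, for each tested gene of the 7 glutamate lists, 1 point per gene with vertical offsets for legibility. Red marks a limma adjusted p below 0.05, which Grin1, at -1.21, was the 1 gene to reach; Gad1 follows at -0.99.

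The profile of Grin1 over the 6 libraries was compared with that of 12654 other genes of at least 1 FPKM on average, by the root mean square distance of centred log2 values. The closest were Pdyn, the precursor of dynorphin peptides, at a distance of 0.13, Rit2, a neuronal small GTPase, at 0.14, Cox6a2, a subunit of cytochrome c oxidase best known from heart and muscle, at 0.16, and Vgf, a neuropeptide precursor, and Cdh8, a cadherin of neurons, both at 0.17. The median distance over all those genes was 0.61. This measure picks genes with a difference of like size, so it describes and does not test. Cox6a2 was at 1.49, 2.12 and 1.54 FPKM in bKO replicates 1, 2 and 3, against 3.87, 4.88 and 3.61 FPKM in WT replicates 1, 2 and 3. Cdh8 was at 5.42, 6.54 and 5.18 FPKM in bKO replicates 1, 2 and 3, against 12.3, 15.5 and 10.6 FPKM in WT replicates 1, 2 and 3. Like Grin1, both were highest in replicate 2 within bKO, but their lowest WT library was replicate 3, where Grin1 was at its highest. Their limma adjusted p were 0.0700 for Cox6a2 and 0.0616 for Cdh8.

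**Figure D5:**
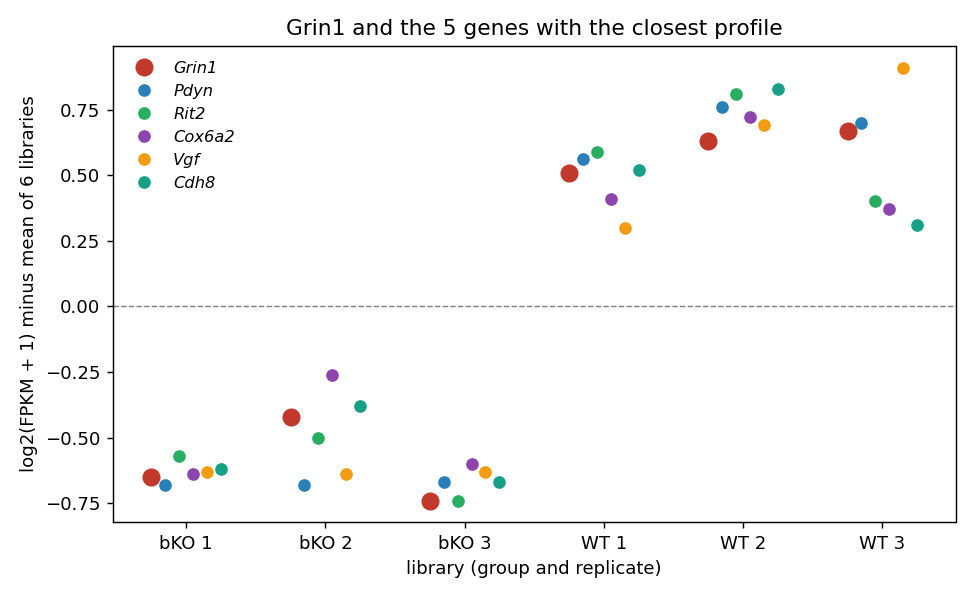
Centred log2(FPKM + 1) of Grin1 and of the 5 genes nearest to it, for each library, bKO left of WT. Points are single libraries, and all 6 genes lie below 0 in bKO and above 0 in WT libraries, with Grin1 at -0.74 to -0.42 in bKO and at 0.51 to 0.67 in WT libraries.

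Whole islets mix cell types, and in such bulk samples fewer cells of a type and less RNA per cell cannot be told apart. Markers of neurons, the best known site of Grin1, summed to 170 to 198 FPKM in bKO and 164 to 196 FPKM in WT libraries, with 8 of 12 markers at positive differences. Limma called 0 of the 12. At an unadjusted limma p under 0.05, 2 were higher and 0 lower, beside 5.05% and 9.17% of all tested genes. Elavl3, Nefm and Prph, 3 of the 12, were higher in every bKO library, beside 15.3% of all tested genes. Their levels ran from Chat, at 0.0740 ± 0.0229 FPKM in bKO and 0.0655 ± 0.0144 FPKM in WT islets, to Snap25, at 58.0 ± 7.79 FPKM in bKO and 64.4 ± 4.74 FPKM in WT islets (SD, n = 3 each). Snap25, Tubb3 and Uchl1 weighed most in the sums. Which cells of the islets held these transcripts was not tested, so sums of like size do not show like neuron content. Rbfox3, Elavl3, Nefl and Chat were below 1 FPKM in every library, so the sums say little about them. Schwann and glial markers summed to 31.4 to 35.3 FPKM in bKO and 24.7 to 37.1 FPKM in WT libraries, and 7 of 9 were positive. The beta cell factor Nkx6-1 averaged 46.3 ± 5.88 FPKM in bKO and 48.7 ± 2.68 FPKM in WT islets, and Pdx1 51.2 ± 6.74 FPKM in bKO and 48.4 ± 5.75 FPKM in WT islets (SD, n = 3 each). The 10 beta cell markers together, mostly insulin, summed to 216844 to 293514 FPKM in bKO and 271172 to 359591 FPKM in WT libraries. Of them 4, Ins1, Iapp, G6pc2 and Ucn3, were lower in every bKO library, beside 6.48% of all tested genes. Limma called 0 of the 10. At an unadjusted limma p under 0.05, 2 of them were lower and 0 higher, beside 9.17% and 5.05% of all tested genes. Ins2, Iapp and Ins1 stood in this order in every library, and quantile normalization gives a rank the same value in each library. Their log2 differences of 0.00 were thus set by that step and say nothing about their levels. Limma could not have called them. Alpha cell markers summed to 8800 to 14014 FPKM in bKO and 10904 to 12558 FPKM in WT libraries. Delta and PP markers summed to 12567 to 15587 FPKM in bKO and 11320 to 15746 FPKM in WT libraries. After quantile normalization, 5 of 5 delta and PP markers had negative log2 differences, from -0.54 to -0.01. In deposited FPKM, however, 2 of these 5 had the higher mean in bKO islets. Endothelial markers summed to 185 to 194 FPKM in bKO and 132 to 145 FPKM in WT libraries, with 7 of 7 higher in every bKO library, beside 15.3% of all tested genes. Limma called 0 of these 7, with adjusted p between 0.0968 and 0.363. Leukocyte markers summed to 16.5 to 18.9 FPKM in bKO and 22.3 to 27.6 FPKM in WT libraries. Of these 5 markers, 3 were lower in every bKO library, beside 6.48% of all tested genes. Limma called 0 of the 5, with 3 lower at an unadjusted p under 0.05, beside 9.17% of all tested genes. All 12 acinar and all 7 stellate markers had positive differences. Acinar markers summed to 11610 to 26298 FPKM in bKO and 1323 to 19894 FPKM in WT libraries, and all 12 overlapped between the groups. The lowest acinar sum was that of WT replicate 1, and bKO replicate 2 (11610) lay below WT replicates 2 and 3 (16589 and 19894). Stellate markers summed to 244 to 466 FPKM in bKO and 144 to 366 FPKM in WT libraries. Of these 7, 1 was higher in every bKO library, beside 15.3% of all tested genes. Among duct markers 5 of 6 were positive, with sums of 1829 to 2230 FPKM in bKO and 1278 to 1892 FPKM in WT libraries. Limma called 0 of the acinar, stellate and duct markers. The part of these mixtures in the Grin1 difference was not tested. Without WT replicate 1, the library with the lowest acinar sum, the Grin1 difference was -1.26 (limma adjusted p = 0.0318). Leaving out a library does not test the mixture, and 4 of the 6 such fits lost the Grin1 call (limma adjusted p 0.096 to 0.242).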

How the data were processed

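The deposited table gives 1 FPKM value per gene and library. According to the design text and the labels, a service provider trimmed and mapped the reads for the authors and ran Cufflinks with its -G option, which keeps to known transcripts. The submitters' processing notes name mm9, and no label names an aligner. The provider also took logs, normalized by quantiles and dropped entries at 0, per the design text. The deposited FPKM are linear and still hold 585 genes at 0. A row without a gene name, holding the column medians, and 1 blank row were left out.

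Libraries took their group and replicate number from the sample titles. Genes with a 0 in some library were not fitted. Values became log2(FPKM + 1), were quantile normalized over 6 libraries and fitted with limma 3.58.1 in R 4.3.3 (lmFit, eBayes with trend, two-sided, Benjamini-Hochberg over 15962 genes, threshold 0.05). The added 1 understates differences of low genes. Means, SD, ratios and overlap are of deposited FPKM. Where a gene has several transcripts the file gives 1 value. Fragment numbers were estimated from FPKM steps of genes with 1 transcript and GENCODE transcript lengths. At the chosen depths, 65.8% to 70.0% of low values lay within 0.1 of a whole number, so they are rough. Simulated data with known changes tested the limma code.

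The members, gene lists, marker lists and the rule for naming were chosen with earlier results of these data known. The rule names all members, Kcnj11, the genes called in each list with up to 4 more of smallest unadjusted p and a mean FPKM of at least 1, and the 5 genes nearest to Grin1 in profile. Some genes that the rule or the lists hold are not reported here. Other settings tried were 0.1 as pseudocount, scaling by median of ratios or none in place of quantiles, keeping genes with a 0, a floor of 1 on mean FPKM, eBayes with no trend, a block for replicate number, omission of each library, and the mean of bKO replicates 1 and 3 as 1 sample. Tables and figures were made in Python 3.11.15 (pandas 2.3.3, numpy 2.4.6, matplotlib 3.10.9).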

Additional observations from a re-analysis of the deposited data

How the results depend on the processing

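Of 526 values computed under 14 alternative settings, 476 kept the direction and side of the threshold of the value reported, or for counts stayed within 1.5 times of it. Grin1 stayed lower throughout, with differences of -1.30 to -1.14 when single libraries were omitted, and missed the threshold in 4 of those 6 fits, in the fit with the replicate block (-1.21, limma adjusted p = 0.119) and with bKO replicates 1 and 3 averaged (-1.17). Kcnj11 missed it in the same 6 fits. Over all genes, calls numbered 0 to 23 higher and 0 to 27 lower over the libraries left out, 0 and 0 with the replicate block or with the pair averaged, and 19 higher without quantile normalization, against 10 higher and 21 lower as reported. The count of members and of pathway genes called lower was 0 to 1 over the libraries left out, and 0 with the replicate block or the pair averaged. Whether the replicate numbers pair the libraries was not settled. Deviations of same-numbered libraries from their group means correlated at -0.20, 0.07 and 0.30 across genes for numbers 1, 2 and 3. Libraries of unlike number correlated at -0.37 to 0.31, and with 3 libraries a group such values cannot decide it. Small differences turned sign when a library was left out: Grin2d ranged from -0.08 to 0.01, Grin3a from -0.02 to 0.01, Gria2 from -0.06 to 0.10 and Grik2 from -0.05 to 0.01. Several uncalled differences kept their sign but moved by over 1.5 times, among them those of members and of Rest: Grin2c ranged from -0.31 to -0.10, Grina from -0.17 to -0.02, Grik5 from 0.04 to 0.20 and Rest from 0.14 to 0.43. Grik2 was also at 0.01 without quantile normalization and at 0.00 with median of ratios scaling. The cause of these changes was not tested beyond the fewer libraries. Depth limits Grin3a, Grik2 and Grid1, whose levels rest on few fragments.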
